A study of Mus musculus with 9 samples.

Results

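The interleukin-1 family and inflammasome set described here holds 10 mouse genes that were picked by name: Il1b, Il1a, Il1rn, Il18, Il1r2, Il1rap, Nlrp3, Casp1, Casp4 and Il18bp. Each matched 1 row, by gene symbol, of the 59445 features in the deposited expression table. The table covers macrophages sorted from the liver as F4/80+ CD11b+ cells, from male C57BL/6 mice that had received carbon tetrachloride (CCl4), a hepatotoxin, 24 hours earlier. The dose was 0.6 mg/kg by injection into the peritoneum, as labelled. The MAGL Mye-/- group had 5 libraries (S8 to S12), 3 from mice aged 10 weeks and 2 (S8 and S12) from mice aged 11 weeks. The MAGL fl/fl group had 4 libraries (S1, S3, S4 and S5), all from mice aged 11 weeks. MAGL (monoacylglycerol lipase, encoded by Mgll) is the enzyme that breaks 2-arachidonoylglycerol down to glycerol and arachidonic acid. All mice received CCl4, so the comparison asks what a myeloid loss of MAGL changes in macrophages of an injured liver and says nothing about the injury itself. The driver that deletes the floxed allele, the exons removed and the time of deletion are not named in the labels. The labels do not say whether a library came from 1 mouse or from a pool, and p-values measure only the spread between these libraries.

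Interleukin-1 beta and interleukin-18 are made by macrophages as inactive precursors. A first signal through Toll-like receptors and NF-kB raises the precursor transcripts, above all that of Il1b, and a second signal assembles an inflammasome, in which a sensor such as NLRP3 recruits the adaptor ASC and caspase-1. Caspase-1 cuts the precursors and gasdermin D, whose pores let the cytokines out. The system is held in check by a receptor antagonist (Il1rn), a decoy receptor (Il1r2) and a secreted binding protein for interleukin-18 (Il18bp). Transcript levels show the first of these steps only, since cleavage and release leave no mark on RNA.

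Libraries held 35691354 to 46489349 reads in Mye-/- and 33383559 to 43884866 in fl/fl. Features with at least 1 read numbered 15614 to 16802 in Mye-/- and 14240 to 16385 in fl/fl. The mitochondrial chromosome took 3.93% to 7.09% of reads in Mye-/- and 3.49% to 9.45% in fl/fl. The CD11b gene Itgam averaged 49711 ± 4679 normalized reads in Mye-/- (SD, n = 5) and 48739 ± 7072 in fl/fl (SD, n = 4), and the F4/80 gene Adgre1 averaged 6443 ± 1054 in Mye-/- and 5433 ± 658 in fl/fl, so the labelled sort markers were present. Lyz2, the lysozyme gene of macrophages and neutrophils, was at 169027 ± 24893 in Mye-/- and 308919 ± 83367 in fl/fl, on a feature it shares with Lyz1. All Mye-/- values of that feature lay below all fl/fl values, and its adjusted p was 0.218 with limma, 0.0860 with edgeR and 8.13e-05 with DESeq2. Ly6g, the defining surface marker of neutrophils, was at or near 0 in all libraries. Other genes of the neutrophil list differed. Stfa2l1 was at 0 in all libraries, but S100a8 ran from 10460 to 36877 and Lcn2 from 4846 to 13784 normalized reads. Mgll itself was at 25.1 ± 21.2 in Mye-/- and 37.0 ± 47.4 in fl/fl (two-sided exact permutation p = 0.730), too low to check the genotype labels.

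Normalized reads are read counts divided by 1 size factor per library, with no correction for gene length. To order the genes against each other, values were divided by the exon length of each gene in kilobases (GENCODE M21, exons of all isoforms merged). On this per-length scale, and over all 9 libraries, Il1b was the most abundant member at 13908 ± 4725 normalized reads per kilobase (SD, n = 9). Casp1 followed at 5192 ± 741 and Nlrp3 at 2262 ± 643. Il1b lay above Casp1, and Casp1 above Nlrp3, in 9 of 9 libraries, and Nlrp3 lay above Il1r2 in 8. A middle group held Il1r2 (1106 ± 472), Il18 (1067 ± 268), Il1rn (909 ± 354) and Casp4 (726 ± 194). Neighbours within it did not differ beyond their spread, since Il1r2 exceeded Il18 in 4 libraries, Il18 exceeded Il1rn in 7 and Il1rn exceeded Casp4 in 5. Casp4 exceeded Il1a (177 ± 106) in 9 of 9 libraries. Il18bp (34.6 ± 32.4) and Il1rap (28.1 ± 11.0) were lowest and could not be ordered, with Il18bp above Il1rap in 5 libraries. Merged exons span 11360 bases for Il1rap, the longest of the set, which lowers its value on this scale where only a short isoform is made.

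**Figure D1:**
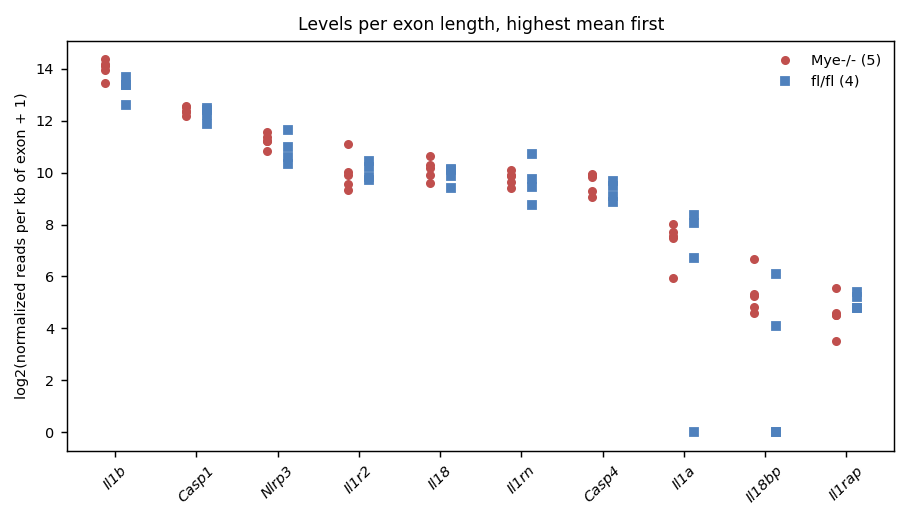
Each point is 1 library, with circles for Mye-/- (5) and squares for fl/fl (4); the vertical axis is log2(normalized reads per kilobase of exon + 1) and genes run from the highest mean to the lowest. Il1b stands above Casp1 and Nlrp3, a middle group spans Il1r2 to Casp4, and the points at 0 are Il1a in fl/fl S4 and Il18bp in fl/fl S1 and S3.

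Of the 10 members, 8 had a fitted log2 fold change above 0 and 2 below it, with a median of 0.28; over the 15288 features tested 54.6% were above 0 and the median was 0.06. The fit was limma on log2(normalized value + 1), 5 Mye-/- against 4 fl/fl libraries, with Benjamini-Hochberg adjustment over all features tested. All 10 members passed the filter on low values. None passed an adjusted p of 0.05 (0.0196% of all features did), and 2 had an unadjusted p under 0.05, Il1b and Il18bp, against 10.5% of all features. Il18bp was at 0 in fl/fl S1 and S3 and met the filter through its Mye-/- libraries, so its p is a description only. DESeq2 on the whole reads recovered from the table called 1 member, Il1b, and 0.955% of all features, and gave no p-value for Il18bp. edgeR called 0 members and 0.0131% of all features, with Il1b alone at an unadjusted p under 0.05. In no member were the groups fully separated, while 3.3% of all features had groups that did not overlap.

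**Figure D2:**
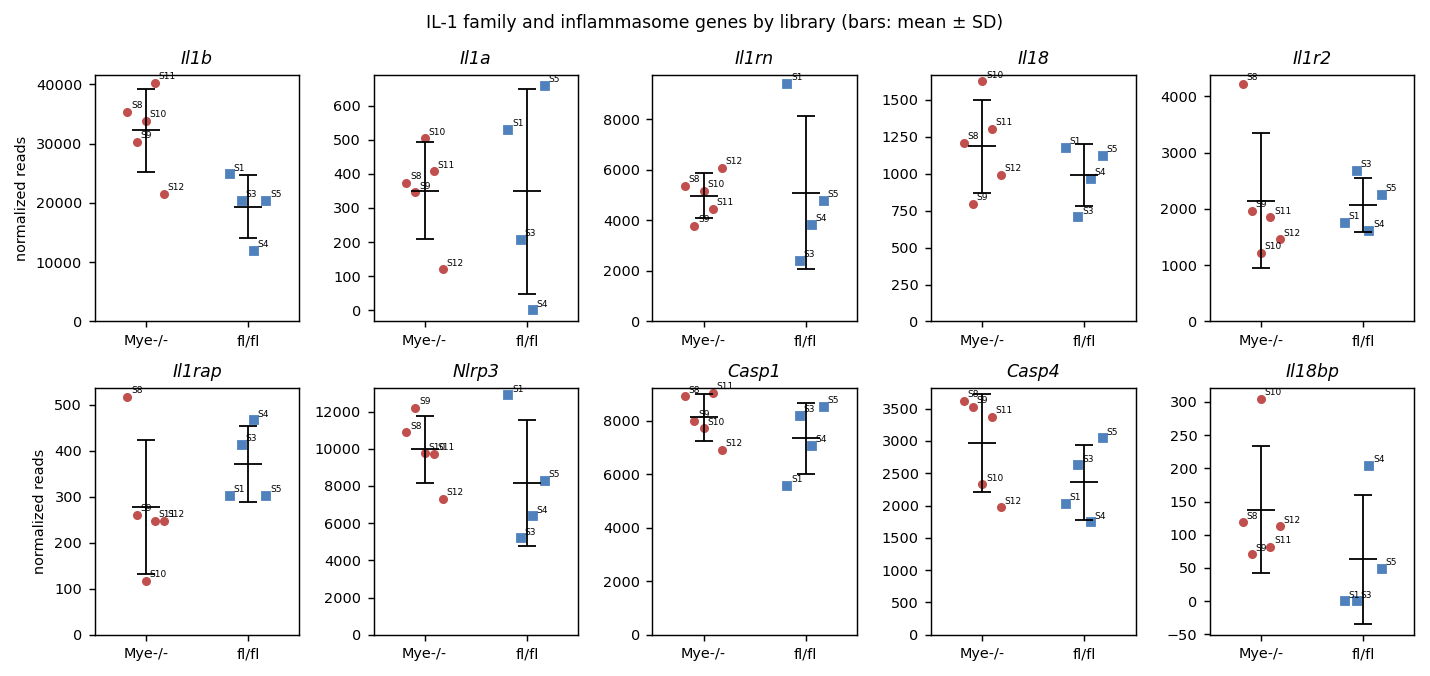
Each panel is 1 member, with normalized reads on a linear vertical axis, Mye-/- libraries as circles on the left, fl/fl libraries as squares on the right, and bars for the mean ± SD. In Il1b 4 of 5 Mye-/- libraries lie above all fl/fl libraries, and in every panel the groups overlap.

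Il1b encodes interleukin-1 beta, the main secreted interleukin-1 of macrophages, and had the smallest p of the set. It was at 35366, 30271, 33822, 40229 and 21485 normalized reads in Mye-/- S8 to S12, against 24827, 20362, 11955 and 20382 in fl/fl libraries S1, S3, S4 and S5. All Mye-/- libraries except S12 were above every fl/fl library, and S12 lay between fl/fl S1 and the other fl/fl libraries. The means were 32235 ± 6994 in Mye-/- (SD, n = 5) and 19381 ± 5378 in fl/fl (SD, n = 4). The fitted log2 fold change was 0.75 ± 0.20 (SE). As a ratio this is 1.68-fold, with a 95% interval, not adjusted for the number of features, from 1.26 to 2.25. The limma adjusted p was 0.218, and over the 24 alternative settings, DESeq2 included, adjusted p ran from 0.0273 to 0.976. DESeq2 gave a log2 fold change of 0.73 with an adjusted p of 0.0273, the only call among those settings. The estimate was 0.56 among mice aged 11 weeks (adjusted p = 0.976), where S8 and S12 stand alone for Mye-/-, and 1.02 without fl/fl S1 and S3. Il1b lies on chromosome 2 from 129364577 to 129371142 (mm10, minus strand), and its exons overlap those of the antisense RNA gene Il1bos, whose reads cannot be told apart without strand.

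**Figure D3:**
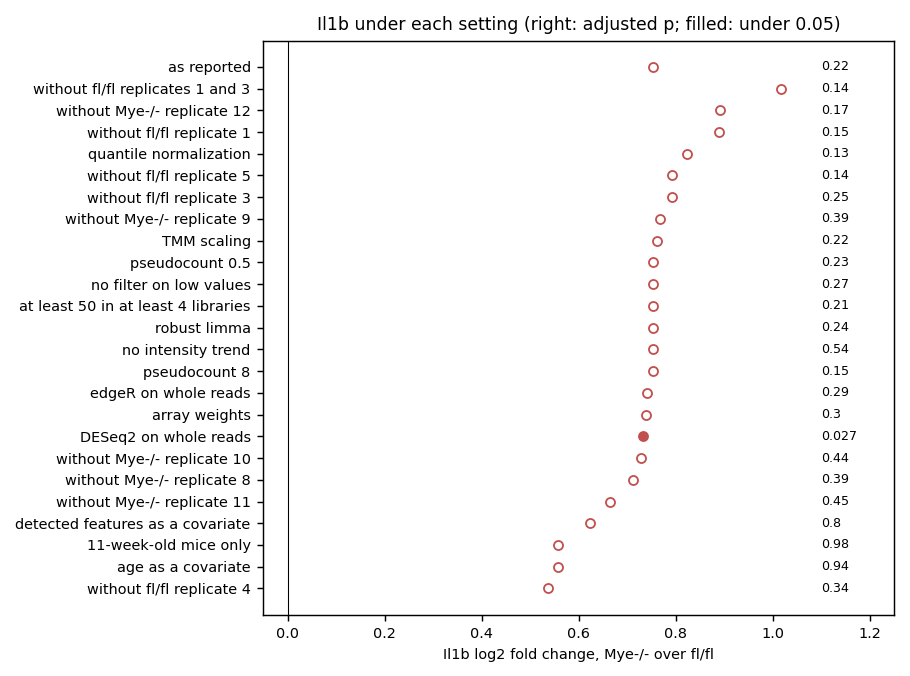
Each circle is the log2 fold change of Il1b, Mye-/- over fl/fl, under 1 setting, with the value as reported at the top, the alternatives below it by size and the adjusted p at the right. All estimates lie between 0.54 and 1.02, and the single filled circle is DESeq2.

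Summed levels of 4 marker lists are given beside Il1b. With limma and with edgeR 0 of their genes passed the adjusted threshold. Over all features 54.6% had a limma estimate above 0 and 10.5% a limma unadjusted p under 0.05. DESeq2 called 0.955% of all features. The summed level of 8 measured genes of a dissociation and immediate-early list (Fos, Fosb, Egr1, Atf3, Nr4a1, Ier2, Dusp1 and Zfp36) was 673337 to 748802 in Mye-/- and 526675 to 650481 in fl/fl. The groups did not overlap in that sum, 6 of the 8 genes were higher in Mye-/- with 2 at an unadjusted p under 0.05, and DESeq2 called 2 higher, Fosb and Atf3. The sum of 10 markers of Kupffer cells, the resident macrophages of the liver, was 22676 to 33366 in Mye-/- and 11776 to 22608 in fl/fl. Of 8 tested genes 7 were higher, and 4 of the 8, Id3, Clec4f, Cd5l and Marco, had an unadjusted p under 0.05. Clec4f, Cd5l and Marco met the filter on low values through their Mye-/- libraries, so their p-values are a description only. Id3, a helix-loop-helix protein that blocks transcription factor binding, made up 85.1% to 94.8% of that sum and was the single gene of the list that DESeq2 called (adjusted p = 0.0120). Without Id3 the sum was 1734 to 3979 in Mye-/- and 1125 to 1755 in fl/fl, ranges that overlapped, and Timd4, Vsig4 and Folr2 were at 0 in at least 5 of the 9 libraries. The sum of 15 neutrophil markers was 25176 to 50615 in Mye-/- and 44763 to 64091 in fl/fl, with Ly6g and Stfa2l1 at or near 0. Of 8 tested genes 5 were lower, and 4 of the 8 had an unadjusted p under 0.05. Of those 4, S100a8, S100a9 and Lcn2 were lower, and Csf3r was higher, at 4390 ± 673 in Mye-/- and 3239 ± 725 in fl/fl. DESeq2 called 1 gene of the list lower, the lipocalin gene Lcn2, at 6357 ± 900.2 in Mye-/- and 11243 ± 1974 in fl/fl (DESeq2 adjusted p = 0.000153, limma adjusted p = 0.0608). The sum of 10 hepatocyte markers was 1296 to 11539.6 in Mye-/- and 701 to 1959.7 in fl/fl. The top value was in Mye-/- S10, and the other Mye-/- libraries, at 1296 to 2119, overlapped the fl/fl range. All 8 tested genes had estimates above 0, and all 8 peaked in S10. The median of these limma estimates was 2.01 on the log2 scale, and 4 genes had an unadjusted p under 0.05. The lowest fl/fl value was 0 for Ttr, Fgg, Rbp4 and Apob, so their estimates depend on the 1 added before taking logs. With limma these were 3.90, 3.13, 4.14 and 2.39, and with DESeq2 2.46, 1.96, 2.50 and 1.30. Estimates of Alb, Apoa1, Hpx and Serpina1c were higher with DESeq2 than with limma. DESeq2 called 0, but gave no p-value for Ttr or for Alb, which made up 38.6% to 69.1% of the sum. Tat was at 0 in all libraries. The part of these genes and cells in the Il1b values was not tested, and in bulk RNA fewer cells of a type cannot be told apart from less RNA per cell.

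Among 6762 other named features averaging 500 normalized reads or more, the 5 most like Il1b over the 9 libraries, by Pearson's r of log2 values, were Pdzd11 (r = 0.938), Klhl24 (0.933), Fosb (0.931), Slc45a4 (0.930) and Tgtp2 (0.929). Fosb belongs to the AP-1 family of transcription factors, and Tgtp2 is an interferon-induced GTPase. The points are libraries of both genotypes that differ in depth, and these r values were the highest of many, so they are a description.

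Il1a (mm10 chr2:129299610-129309973, minus strand), which encodes interleukin-1 alpha, a form that can signal without caspase-1 cleavage, was low. Its values were 373, 346, 504, 407 and 120.4 normalized reads in Mye-/- S8 to S12, against 528, 207, 0 and 658 in fl/fl libraries S1, S3, S4 and S5. The fl/fl libraries spanned the whole range and fl/fl S4, the library with the lowest Il1b, had no Il1a read. The means were 350.3 ± 142 in Mye-/- and 348 ± 299.8 in fl/fl. The fitted log2 fold change of 1.79 ± 1.31 (SE, limma adjusted p = 0.659) rests on fl/fl S4, without which it was -0.39, and DESeq2 gave 0.01. Per 100 normalized reads of Il1b there were 0.561 to 1.49 of Il1a in Mye-/- and 0 to 3.23 in fl/fl. Exons of Il1a overlap the noncoding gene Gm14023 on the other strand.

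The promoters of both cytokine genes are shown because Il1b had the smallest p of the set and Il1a is its family neighbour on chromosome 2. Each line gives the 250 bases before the transcription start (RefSeq, GRCm38.p6, the assembly of mm10), 5′ to 3′ in the direction of the gene, both on the minus strand, at chr2:129371140-129371389 and chr2:129309973-129310222. Capitals mark every match to one of 7 motifs searched on both strands.
Il1b: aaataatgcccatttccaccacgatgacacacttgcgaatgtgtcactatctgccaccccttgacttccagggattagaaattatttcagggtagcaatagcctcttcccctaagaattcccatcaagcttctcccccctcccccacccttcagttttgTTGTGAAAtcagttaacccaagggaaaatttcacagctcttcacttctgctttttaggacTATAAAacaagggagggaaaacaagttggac
Il1a: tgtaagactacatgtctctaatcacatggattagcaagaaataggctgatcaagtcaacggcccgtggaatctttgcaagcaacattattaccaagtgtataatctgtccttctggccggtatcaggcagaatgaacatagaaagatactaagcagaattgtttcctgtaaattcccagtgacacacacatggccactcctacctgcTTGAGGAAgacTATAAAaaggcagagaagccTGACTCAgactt
The motifs were the NF-kB consensus, AP-1 (TGANTCA), C/EBP (TTNNGNAA), an interferon regulatory factor repeat (GAAA, any 2 bases, GAAA), PU.1 (GAGGAAGT), the cyclic AMP element (TGACGTCA) and the TATA box (TATAAA). Il1b held a TATA box 31 to 26 bases before its start and a C/EBP match 91 to 84 bases before it. Il1a held a TATA box at 32 to 27, a C/EBP match at 43 to 36 and an AP-1 match at 12 to 6 bases before its start. Among 32851 promoter windows of the same length, 12.4% held the TATA motif, 36.8% the C/EBP motif and 6.75% the AP-1 motif. A match describes letters only.

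Il18 (mm10 chr9:50554700-50581841, plus strand) encodes interleukin-18, which unlike Il1b is transcribed in resting macrophages. It was at 1209, 797, 1625, 1304 and 994 normalized reads in Mye-/- S8 to S12, against 1177, 706, 966 and 1119 in fl/fl libraries S1, S3, S4 and S5. The highest value was in Mye-/- S10, 3 Mye-/- libraries were above every fl/fl library, and the other two lay within the fl/fl range. The means were 1186 ± 314 in Mye-/- and 992 ± 211 in fl/fl, a log2 fold change of 0.24 ± 0.24 (SE, limma adjusted p = 0.754), with a 95% interval of the ratio from 0.836 to 1.68. Mye-/- S10 also had the highest summed level of the hepatocyte markers, 11539.6 against 1296 to 2119 in the other Mye-/- libraries, and its part in Il18 was not tested. The genes most like Il18 were Vps13d (r = 0.949), Tap1 (0.934), Mocs2 (0.930), Tmem59 (0.929) and Pparg (0.909). Tap1 is a peptide transporter of antigen presentation, and Pparg a nuclear receptor of lipid metabolism.

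Il1rn (mm10 chr2:24336853-24351494, plus strand) encodes the interleukin-1 receptor antagonist, which occupies the receptor without signalling. It was at 5360.4, 3784, 5179.7, 4459.7 and 6089 normalized reads in Mye-/- S8 to S12, against 9401, 2406, 3814 and 4779 in fl/fl libraries S1, S3, S4 and S5. The fl/fl group held both the highest value, in S1, and the lowest, in S3, and all Mye-/- values lay between them. The means were 4975 ± 883 in Mye-/- and 5099.8 ± 3028 in fl/fl. The log2 fold change was 0.12 ± 0.27 (SE, limma adjusted p = 0.899), and it was -0.04 with DESeq2 and -0.18 without fl/fl S3. The coefficient of variation was 17.7% in Mye-/- and 59.4% in fl/fl, and with 4 and 5 libraries this difference in spread was not tested.

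Set against the agonist, Il1rn was at 15.2, 12.5, 15.3, 11.1 and 28.3 normalized reads per 100 of Il1b in Mye-/- S8 to S12, against 37.9, 11.8, 31.9 and 23.4 in fl/fl libraries S1, S3, S4 and S5. The ratio was higher in fl/fl S1 and S4 than in every Mye-/- library. Mye-/- S12 lay above fl/fl S3 and S5, and fl/fl S3 lay below every Mye-/- library except S11. The mean was 16.5 ± 6.87 in Mye-/- and 26.3 ± 11.3 in fl/fl, the ranges overlapped, and this ratio was compared without a test because both genes are members. The ratio is not corrected for gene length and has meaning only between libraries.

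Il18bp (mm10 chr7:102015076-102018690, minus strand) encodes the secreted protein that neutralises interleukin-18. It was at 119, 70.7, 304, 82.3 and 113 normalized reads in Mye-/- S8 to S12, against 0, 0, 204 and 48.3 in fl/fl libraries S1, S3, S4 and S5. It was present in 5 of 5 Mye-/- and 2 of 4 fl/fl libraries, and fl/fl S4 exceeded every Mye-/- library except S10. The means were 138 ± 95.3 in Mye-/- and 63.1 ± 96.8 in fl/fl. The fitted log2 fold change was 3.58 ± 1.46 (SE, limma unadjusted p = 0.0243, adjusted p = 0.405). It depends on the pseudocount for the libraries at 0, being 2.11 with a pseudocount of 8 and 1.12 with DESeq2. DESeq2 gave no p-value for this gene. Il18bp met the filter on low values through its Mye-/- libraries, so its limma p is a description only. The limma estimate was 0.25 without fl/fl S1 and S3, both at 0. In these libraries 66.1% to 68.3% of nonzero read numbers under 1000 were even, so reads of a gene this low may not be separate molecules. Il18bp itself had both odd and even read numbers, and the cause of the even share was not tested. Mye-/- S10, the highest, was also highest in the hepatocyte sum given above and in 5 of the 10 Kupffer cell markers (Clec4f, Vsig4, Cd5l, Marco and Clec1b), while Id3, Nr1h3, Cd163, Folr2 and Timd4 peaked in other libraries. The Kupffer cell sum was 30397 in S10 and highest, at 33366, in S8. The part of those cells in the Il18bp values was not tested.

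Il1r2 (mm10 chr1:40084714-40125230, plus strand) encodes the decoy receptor, which binds interleukin-1 and does not signal. It was at 4221, 1961, 1216, 1852 and 1459 normalized reads in Mye-/- S8 to S12, against 1757, 2674, 1614 and 2244 in fl/fl libraries S1, S3, S4 and S5. Mye-/- S8 was far above all other libraries, and the other Mye-/- libraries lay within or below the fl/fl range. The means were 2142 ± 1200.4 in Mye-/- and 2072 ± 484 in fl/fl. The log2 fold change was -0.07 ± 0.28 (SE, limma adjusted p = 0.952). It was 0.05 with DESeq2, 0.29 with age as a covariate and -0.35 without Mye-/- S8, so no direction held.

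Il1rap (mm10 chr16:26581705-26730128, plus strand) encodes the co-receptor chain shared by the signalling receptors for interleukin-1, interleukin-33 and interleukin-36. It was at 516, 261, 118, 248 and 248 normalized reads in Mye-/- S8 to S12, against 302, 413, 466 and 301 in fl/fl libraries S1, S3, S4 and S5. All Mye-/- libraries except S8 were below every fl/fl library, and S8 was above all of them. The means were 278 ± 145 in Mye-/- and 371 ± 82.6 in fl/fl, a log2 fold change of -0.54 ± 0.44 (SE, limma adjusted p = 0.701), and the estimate was -0.80 without Mye-/- S8 and -0.02 among mice aged 11 weeks. Exons of Il1rap overlap the antisense gene Gm20319. Mye-/- S8 held the highest Il1r2 and the highest Il1rap, and Mye-/- S10 the lowest of both. The summed level of the neutrophil markers was 41938 in Mye-/- S8, the second highest of its group after S9 at 50615, and 25176 in S10, the lowest. The S8 sum lay below every fl/fl library (44763 to 64091). The sum of 8 monocyte markers was 945423 in Mye-/- S8, the highest of the 9 libraries, and their part in these 2 receptors was not tested.

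**Figure D4:**
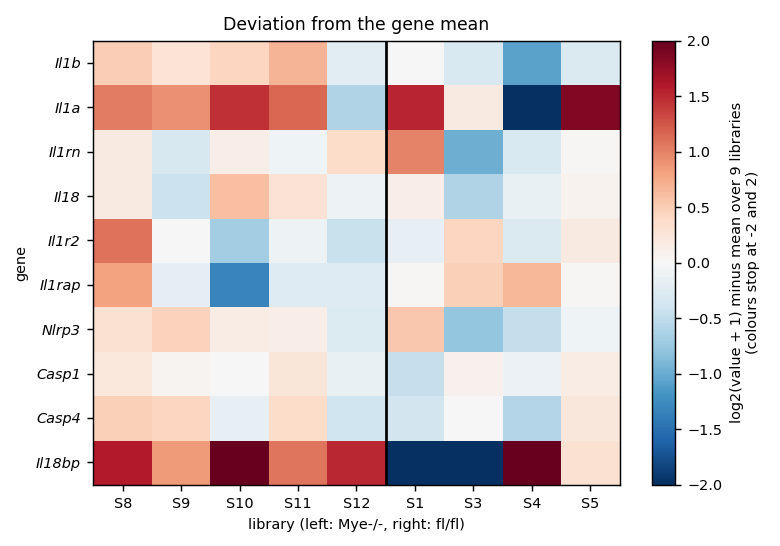
Rows are the 10 members and columns the 9 libraries, Mye-/- left of the line and fl/fl right of it; colour gives log2(normalized reads + 1) minus the mean of the gene over the 9 libraries, and stops at -2 and 2. Il1b is above its mean in 4 of 5 Mye-/- libraries, Il1r2 and Il1rap are highest in Mye-/- S8, and fl/fl S4 and S3 are below the mean for Il1b, Il1rn, Il18 and Nlrp3.

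Nlrp3 (mm10 chr11:59541569-59566956, plus strand) encodes the inflammasome sensor that responds to potassium loss, crystals and lysosomal damage, and its transcript rises with the same first signal as Il1b. It was at 10886, 12207, 9764, 9727 and 7320.5 normalized reads in Mye-/- S8 to S12, against 12872, 5183, 6372 and 8272 in fl/fl libraries S1, S3, S4 and S5. The highest value was in fl/fl S1, while 4 of 5 Mye-/- libraries were above the other fl/fl libraries. The means were 9981 ± 1800.2 in Mye-/- and 8175 ± 3379.9 in fl/fl, a log2 fold change of 0.35 ± 0.21 (SE, limma adjusted p = 0.565). The 95% interval of the ratio ran from 0.944 to 1.73. Without fl/fl S1 the log2 fold change was 0.60 (adjusted p = 0.265), and it was 0.08 once the model held the detected features of each library. The genes most like Nlrp3 were Dusp3 (r = 0.952), Mthfs (0.937), Usb1 (0.926), Ppp2r5a (0.920) and Rab7b (0.909).

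Casp1 (mm10 chr9:5298517-5307289, plus strand) encodes caspase-1, the enzyme that cuts both precursors. It was at 8915, 7997, 7713, 9054 and 6923 normalized reads in Mye-/- S8 to S12, against 5565, 8192, 7068 and 8527 in fl/fl libraries S1, S3, S4 and S5. Mye-/- S8 and S11 were just above every fl/fl library, the other Mye-/- libraries lay within the fl/fl range, and fl/fl S1 was lowest. The means were 8120.3 ± 883 in Mye-/- and 7338 ± 1337 in fl/fl, a log2 fold change of 0.16 ± 0.15 (SE, limma adjusted p = 0.738). The 95% interval of the ratio, 0.903 to 1.38, was the narrowest of the set. It leaves out the 1.68-fold estimate of Il1b but overlaps the Il1b interval of 1.26 to 2.25, and the changes of these genes were not compared by a test.

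Casp4 (mm10 chr9:5308849-5336791, plus strand) encodes the mouse enzyme also called caspase-11, which binds bacterial lipopolysaccharide in the cytosol and starts the noncanonical inflammasome. It was at 3623, 3525, 2328, 3369 and 1971 normalized reads in Mye-/- S8 to S12, against 2031, 2623, 1741 and 3039.7 in fl/fl libraries S1, S3, S4 and S5. Mye-/- S8, S9 and S11 were above every fl/fl library, and S10 and S12 lay within the fl/fl range. The means were 2963 ± 759 in Mye-/- and 2359 ± 584 in fl/fl, a log2 fold change of 0.32 ± 0.21 (SE, limma adjusted p = 0.612), with a 95% interval of the ratio from 0.921 to 1.69. Casp4 lies beside Casp1 on chromosome 9, both on the plus strand. Per 100 normalized reads of Casp1 there were 28.5 to 44.1 of Casp4 in Mye-/- and 24.6 to 36.5 in fl/fl.

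The NF-kB consensus was found before the starts of Nlrp3 and Casp4 alone among the 10 members, which is why these 2 promoters are shown, at chr11:59541319-59541568 and chr9:5308599-5308848 (GRCm38.p6, plus strand, 250 bases each, 5′ to 3′). Capitals again mark matches to the 7 motifs.
Nlrp3: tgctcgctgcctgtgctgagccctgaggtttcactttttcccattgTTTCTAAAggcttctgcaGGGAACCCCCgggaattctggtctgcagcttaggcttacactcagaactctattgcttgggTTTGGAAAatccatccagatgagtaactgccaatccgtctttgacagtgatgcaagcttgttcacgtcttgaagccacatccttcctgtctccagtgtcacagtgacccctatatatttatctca
Casp4: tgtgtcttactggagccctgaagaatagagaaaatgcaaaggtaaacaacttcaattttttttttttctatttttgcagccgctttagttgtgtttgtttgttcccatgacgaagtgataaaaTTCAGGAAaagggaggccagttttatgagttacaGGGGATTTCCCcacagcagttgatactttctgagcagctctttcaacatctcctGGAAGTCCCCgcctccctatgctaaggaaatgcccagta
In Nlrp3 the match lay 186 to 177 bases before the start, with C/EBP matches at 204 to 197 and 125 to 118. In Casp4 a pair of overlapping matches lay 93 to 83 bases before the start and another at 39 to 30, with a C/EBP match at 127 to 120. Of all promoter windows 7.25% held the NF-kB consensus. Il1b had no match in this window, which says nothing of sites elsewhere. The RefSeq starts used for Il1r2 and Il18bp lay 1379 and 458 bases from the starts of their features. For Nlrp3 and Il18, bases just after the RefSeq start were not found in a GENCODE M21 transcript of the gene. The interferon regulatory factor repeat, the PU.1 motif and the cyclic AMP element were in 0 of the 10 members, and in 2.98%, 2.44% and 1.55% of all windows.

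Other genes of the pathway were taken from 4 lists of 54 genes, of which 53 were matched in the table and 44 passed the filter. Of these genes, 26 were higher and 18 lower in Mye-/-, with a median log2 fold change of 0.12 against 0.06 over all features. With limma 0 passed the adjusted threshold. Before adjustment 5 of the higher and 3 of the lower genes had p under 0.05, where all features gave 6.38% higher and 4.13% lower. DESeq2 called 2, Il1rl2 and Pycard, and edgeR called 0. In 1 gene, Il1rl2, all Mye-/- libraries were above all fl/fl libraries (1.7% of all features), and in 3, Pycard, Brcc3 and Myd88, all were below (1.6% of all features). Il1rl2 passed the filter through its Mye-/- libraries alone, so its separation is a description only.

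Pycard encodes ASC, the adaptor that links NLRP3 to caspase-1, and was lower in Mye-/-. It was at 9811, 7937, 7891, 7336 and 7189 normalized reads in Mye-/- S8 to S12, against 10697, 14805, 9956 and 10743 in fl/fl libraries S1, S3, S4 and S5. The highest Mye-/- library lay just below the lowest fl/fl library. The means were 8033 ± 1047 in Mye-/- and 11550.2 ± 2199.7 in fl/fl, a log2 fold change of -0.52 ± 0.14 (SE), with a limma adjusted p of 0.237 and a DESeq2 adjusted p of 0.0458.

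Among the other sensors with the smallest p, none passed the limma threshold after adjustment. Aim2, a sensor of cytosolic DNA, was at 2702 ± 389 in Mye-/- and 2112 ± 332 in fl/fl (limma adjusted p = 0.466). Naip5, which recognises bacterial flagellin for the NLRC4 inflammasome, was at 11356 ± 912 in Mye-/- and 9317 ± 2402 in fl/fl (limma adjusted p = 0.484). Naip6, a flagellin sensor of the same family, was at 2159.7 ± 280.1 in Mye-/- and 1563 ± 657 in fl/fl (limma adjusted p = 0.451). Naip genes are near-identical copies, so their reads may be split between them.

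Among regulators and pore formers, the interferon-induced GTPase Irgb10, listed in the table as Gm12250, was at 2156 ± 666 in Mye-/- and 1042 ± 580.1 in fl/fl (limma adjusted p = 0.218). Brcc3, a deubiquitinase that acts on NLRP3, was at 760.0 ± 169.6 in Mye-/- and 1279 ± 296 in fl/fl (limma adjusted p = 0.310). Serpinb1a, an inhibitor of neutrophil serine proteases, was at 1183 ± 247 in Mye-/- and 1779 ± 539 in fl/fl (limma adjusted p = 0.376). Casp8, a caspase that can also cut the Il1b product, was at 7438 ± 296 in Mye-/- and 6174 ± 1539.8 in fl/fl (limma adjusted p = 0.501). Gsdmd, the pore former itself, was at 6469 ± 1154 in Mye-/- and 5694 ± 634 in fl/fl (limma adjusted p = 0.709).

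Of 13 listed family ligands and receptors outside the 10 members, 12 were in the table and 5 passed the filter. Il1rl2, the receptor for interleukin-36, was at 44.6, 35.3, 86.5, 47.0 and 47.8 normalized reads in Mye-/- S8 to S12, and was listed at 0 in all 4 fl/fl libraries. This is a low gene, in the range where reads may not be separate molecules, and it passed the filter through its Mye-/- libraries alone. Its adjusted p was 0.218 with limma, 0.000835 with DESeq2 and 0.320 with edgeR. Il36g, an interleukin-36 ligand listed as Il1f9, was at 50.6 ± 54.5 in Mye-/- and 88.8 ± 71.6 in fl/fl (limma adjusted p = 0.905). Il18r1 and Il18rap, the chains of the interleukin-18 receptor, were at 8.03 ± 11.0 and 174 ± 54.5 in Mye-/- and at 63.5 ± 50.8 and 135 ± 56.0 in fl/fl (limma adjusted p = 0.593 and 0.826). Il1r1, the signalling receptor for interleukin-1, and Il33 did not pass the filter.

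The signalling chain below the interleukin-1 receptor showed 7 genes higher and 4 lower of 11, and 0 passed the limma threshold. Myd88, the adaptor of this receptor and of Toll-like receptors, was at 3975 ± 202 in Mye-/- and 4505 ± 268 in fl/fl (limma adjusted p = 0.647). Traf6, the ubiquitin ligase downstream of it, was at 534 ± 105 in Mye-/- and 329 ± 279 in fl/fl (limma adjusted p = 0.444), with fl/fl S1 and S4 at 95.2 and 80.3 and the other fl/fl libraries at 571 each. The kinase genes Irak1 and Irak2 were at 4280.0 ± 640.4 and 4110.0 ± 582 in Mye-/- and at 3776 ± 889 and 3433 ± 516 in fl/fl (limma adjusted p = 0.717 and 0.561).

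**Figure D5:**
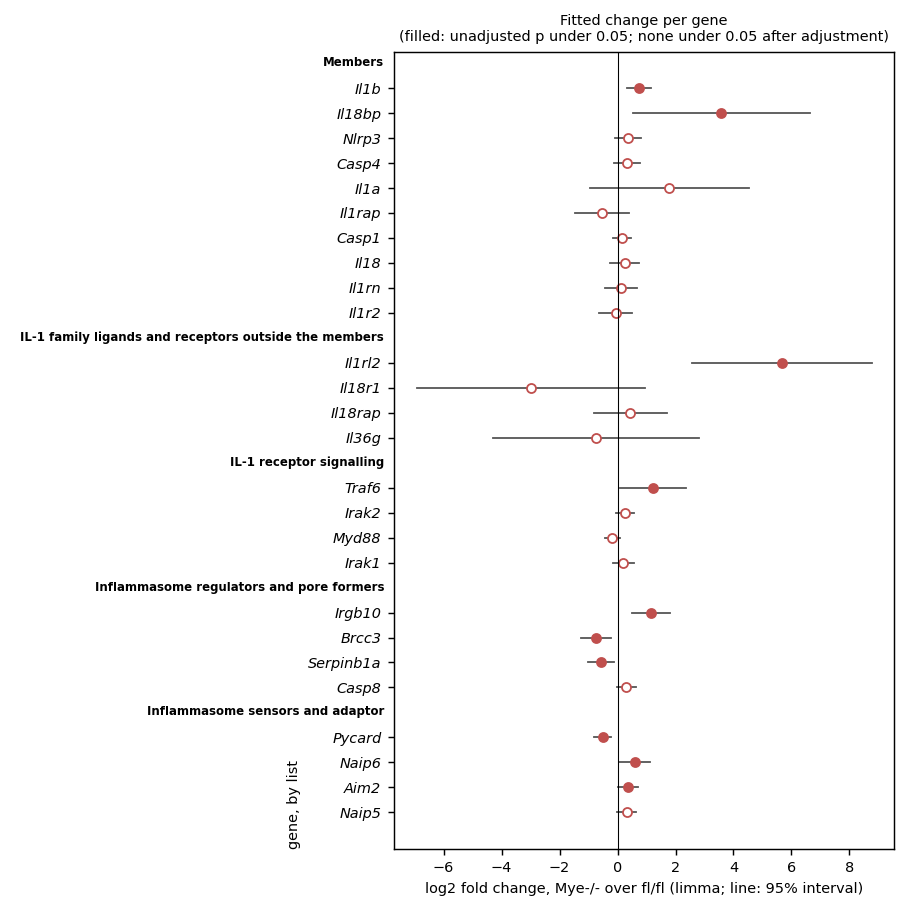
Points are limma log2 fold changes, Mye-/- over fl/fl, with 95% intervals as lines, for the 10 members and for the 4 genes with the smallest p in each pathway list; filled points have an unadjusted p under 0.05. Intervals are narrow for abundant genes such as Il1b and Pycard and span several log2 units for low genes such as Il18bp, Il1a and Il1rl2.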

How the data were processed

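Expression was measured by RNA sequencing of sorted liver macrophages, 5 MAGL Mye-/- and 4 MAGL fl/fl libraries, grouped by the labels. The authors deposited 1 table of signal values, read counts divided by a DESeq size factor per library, per the file headers. The submitters' processing notes name DESeq, alignment software STAR 2.4.0, FastQC, Picard and SAMtools, and mm10 is the build. The counting tool, strand setting and treatment of duplicates are not given in the sources used here. All nonzero values were whole multiples of the smallest value of their library (100% within 0.01 reads), which gave back the reads (33383559 to 46489349 per library); no molecular identifiers are recorded, so counting error understates the error of low genes.

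Computed here were log2(value + 1), a filter of at least 10 in at least 4 libraries, and limma 3.58.1 with an intensity trend in R 4.3.3, two-sided, threshold 0.05. edgeR 4.0.16 and DESeq2 1.42.0 on the recovered reads were alternatives. Mgll was tested over all 126 regroupings. The pipeline was tested on simulated counts. The members and lists were chosen with earlier results of these data known. All 10 members were named, and of each pathway list the 4 tested genes with the smallest p; the marker genes, Il1r1, Il33 and Gsdmd were named outside that rule. Of the cell type lists fixed with the pathway lists, those for monocytes, T, NK, B, dendritic, endothelial, stellate and erythroid cells are given under other observations. Positions are from the table, promoter sequences from RefSeq (GRCm38.p6; all 10 members matched), and exon lengths, strand and overlaps from GENCODE M21, with the window nearest the start of the feature where a gene had several.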

Additional observations from a re-analysis of the deposited data

Results flagged for a closer look

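Il1r2 in Mye-/- S8 lay far from the other Mye-/- libraries, at 4221 normalized reads against 1961 for the next highest, a gap of 0.752 of the range of its group. Il18bp in Mye-/- S10 did so as well, at 304 normalized reads against 119, a gap of 0.794 of the range. These were 2 of 28 groups looked at, for the 10 members, Mgll, Lyz2, Adgre1 and Itgam in each genotype, and chance alone sets about 1 in 20 such groups apart. The cause was not tested.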

How the results depend on the processing

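Of 24 alternatives, no limma or edgeR fit gave a member that passed the adjusted threshold; DESeq2 called 1, Il1b, at a log2 fold change of 0.73. The estimates of Il1b, Il18, Il18bp, Nlrp3, Casp1, Casp4 and Il1rap kept their sign in all 24, Il1b between 0.54 and 1.02 and the median of the members between 0.09 and 0.41. Il1a turned to -0.39 without fl/fl replicate 4 and to -0.70 with the detected features in the model; the range when 1 library was left out was -0.39 to 2.73. Il1rn turned to -0.027 with edgeR, -0.038 with DESeq2, -0.18 without fl/fl replicate 3 and -0.16 with the detected features in the model (-0.18 to 0.48 leaving out 1 library). Il1r2 turned to 0.057 with edgeR, 0.046 with DESeq2, 0.29 with age as a covariate or among mice aged 11 weeks, 0.10 without Mye-/- replicate 10, 0.03 without Mye-/- replicate 12, 0.06 without fl/fl replicate 3 and 0.025 without fl/fl replicates 1 and 3 (-0.35 to 0.10 leaving out 1 library). The Mgll difference of -11.8 turned to 9.73 between medians and to 11.3 without fl/fl replicate 4 (-24.2 to 11.3 leaving out 1 library). Over all features limma called 3; the count was 17 with a pseudocount of 8, 6 with TMM, 8 with quantile normalization, 9 with robust limma, 21 without a trend, 5 with array weights, 146 with DESeq2, 0 with age or the detected features in the model and among mice aged 11 weeks, 0 to 20 when 1 library was left out and 9 without fl/fl replicates 1 and 3. Of pathway genes outside the members 0 passed, but 1 without a trend (Il1rl2) and 2 with DESeq2. The causes were not tested. Leaving out fl/fl S1 and S3 and the term for detected features were chosen after seeing the data. No paired analysis was possible because the labels give no batch or pairing.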

Other observations

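Il1r2 per 100 normalized reads of Il1b, the decoy receptor set against its main ligand, was 11.9, 6.48, 3.59, 4.60 and 6.79 in Mye-/- S8 to S12, against 7.08, 13.1, 13.5 and 11.0 in fl/fl libraries S1, S3, S4 and S5. All Mye-/- libraries except S8 were below every fl/fl library, and the means were 6.68 ± 3.22 in Mye-/- (SD, n = 5) and 11.2 ± 2.95 in fl/fl (SD, n = 4). The ratio was looked at after its genes' values were known and was not tested. Il18bp per 100 of Il18 was 6.31 to 18.7 in Mye-/- and 0 to 21.1 in fl/fl.

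Marker sums in normalized reads, which compare libraries and not lists because genes differ in number and length, were as follows. Macrophage markers summed to 378542 to 476657 in Mye-/- and 509518 to 631973 in fl/fl; without the Lyz2 feature these ranges were 234973 to 271875 in Mye-/- and 209854 to 287988 in fl/fl. Monocyte markers summed to 580692 to 945423 in Mye-/- and 562807 to 842013 in fl/fl. T cell markers summed to 62.9 to 229.7 in Mye-/- and 52.2 to 310.4 in fl/fl, NK cell markers to 176 to 1867 in Mye-/- and 239 to 1871 in fl/fl, and B cell markers to 71.6 to 166 in Mye-/- and 137 to 176 in fl/fl. Dendritic cell markers summed to 407 to 1339.5 in Mye-/- and 239 to 560.0 in fl/fl, endothelial markers to 448 to 659 in Mye-/- and 312 to 1134 in fl/fl, and stellate cell markers to 0 to 72.6 in Mye-/- and 62.1 to 208 in fl/fl. Markers of erythroid cells and platelets summed to 2593 to 6901 in Mye-/- and 5908 to 35204 in fl/fl, where DESeq2 called 3 haemoglobin features lower in Mye-/- and limma and edgeR called 0 of 8 tested, with 4 at a limma unadjusted p under 0.05.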
